A study of Mus musculus with 6 samples.

Results

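Transcript levels of 9 cadherins and of Epcam were compared between kidneys of wild type mice and of mice of the genotype R26NICD2/+Kspcre, called NICD2 below. The genes were picked by name, as the rows of the deposited gene table for Cdh1, Cdh2, Cdh3, Cdh4, Cdh6, Cdh11, Cdh13, Cdh16, Cdh17 and Epcam, 10 of 23669 rows. All 10 had values, and 9 passed the filter on low values, the exception being Cdh17. Both groups were 3 libraries of kidney RNA from animals at postnatal day 3. In NICD2, 1 Rosa26 allele holds the intracellular domain of Notch2, the part of the receptor that acts in the nucleus once Notch is activated. Cre recombinase in these animals is driven by the promoter of Ksp-cadherin, the product of Cdh16, so the domain is produced in cells where that promoter has been active, and RNA of all other kidney cells is in the libraries as well. The labels give the controls as wild type and name no Cre or Rosa26 allele for them.

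Cadherins are transmembrane proteins that bind the same or a similar cadherin on the neighbouring cell in the presence of calcium. The tails of the classical cadherins, here Cdh1, Cdh2, Cdh3, Cdh4, Cdh6 and Cdh11, hold catenins, which link the junction to actin. Cdh16 and Cdh17 have a longer outer part and only a short tail, and Cdh13 is held in the membrane by a lipid anchor. Epcam is an adhesion molecule of epithelia that is not a cadherin. In the kidney, Cdh16 is known as a marker of tubule epithelium, Cdh1 of the distal nephron and collecting duct, Cdh2 and Cdh6 of the proximal side of the nephron, and Cdh11 of stroma.

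The labels' genotypes were visible in the table, since the row for human Notch2, taken here as the transgene, was at 0, 0.03 and 0.03 FPKM (fragment counts scaled to transcript length and library size) in wild type and at 75.4, 79.6 and 60.2 FPKM in NICD2. Depth, estimated from the steps between low values, was 15850000 to 16850000 fragments a library. Summed FPKM of 5 adrenal cortex genes was 112 to 115 in 2 libraries of each group and 2.03 to 4.05 in wild type replicate 3 and NICD2 replicate 1, so adrenal RNA was in 4 of the 6 libraries. NICD2 replicate 3 had no Y-linked RNA, and the other 5 libraries did. Whether the 3 samples of a group were separate animals is not labelled. NICD2 replicate 3 differed from the other NICD2 libraries in Y-linked RNA, and adrenal RNA differed within both groups. The libraries of a group were therefore not all made from the same RNA. How much of the spread that p-values measure here is technical is not known.

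Of the 9 members tested, 1 rose and 1 fell at an adjusted p under 0.05 (limma over 13765 genes). E-cadherin, Cdh1, was higher in NICD2 and R-cadherin, Cdh4, was lower. Of all genes tested, 8.79% were called, 4.93% higher and 3.86% lower, or 1210 genes. That count was 603 and 753 when wild type replicate 2 or 3 was left out, and 666 and 773 when NICD2 replicate 1 or 2 was left out. The groups did not overlap for 5 of the 9 members, namely Cdh1, Epcam and Cdh13 on the higher side and Cdh16 and Cdh4 on the lower, and for 30.5% of all genes tested. Fold changes below are given ± SE as NICD2 minus wild type on the log2(FPKM + 1) scale, which shrinks the change of a gene with low FPKM. Since RNA came from whole kidneys, fewer or more cells of a type and less or more RNA per cell cannot be told apart.

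**Figure D1:**
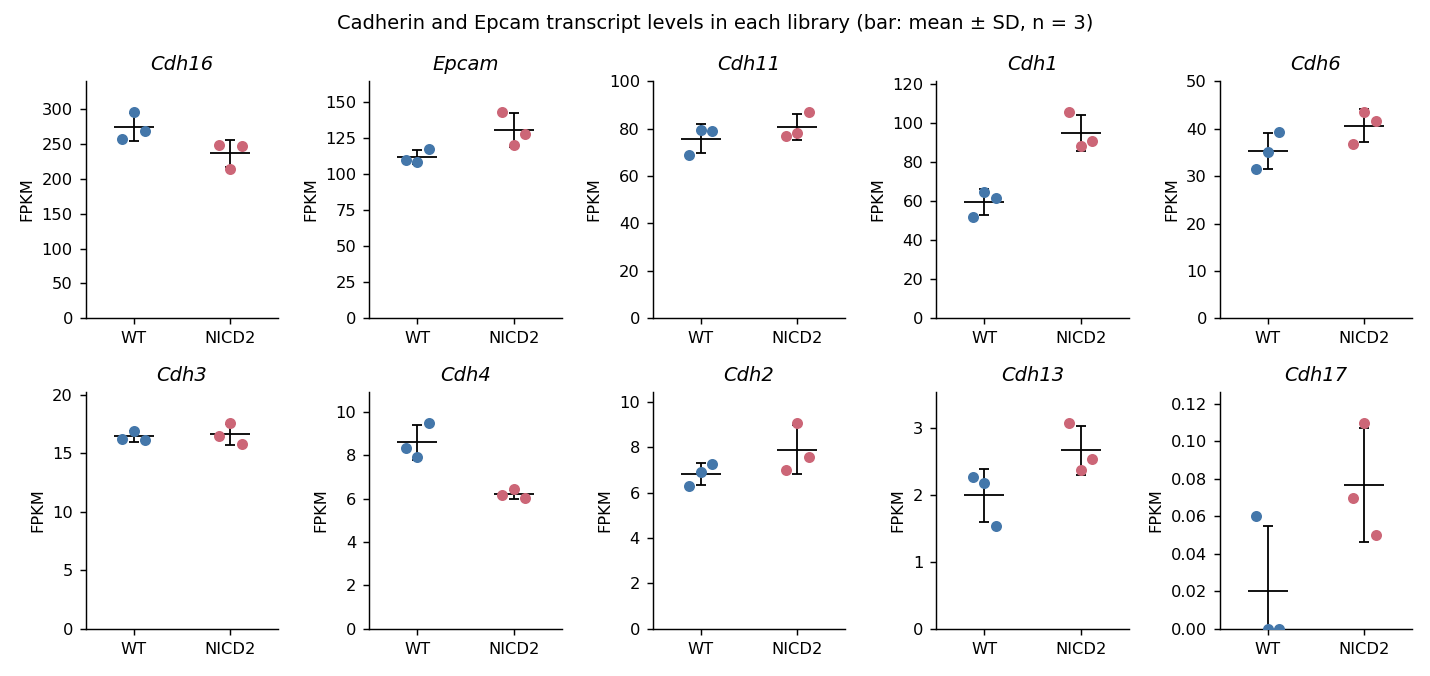
FPKM of each of the 10 genes (vertical axes, each starting at 0 with its own scale) in the 3 wild type (WT) and 3 NICD2 libraries, points from left to right being replicates 1 to 3, with the mean and SD. Cdh1 lies between 51.8 and 64.8 FPKM in wild type and between 88.1 and 106 FPKM in NICD2, and Cdh4 lies at 7.93 to 9.49 and at 6.02 to 6.42 FPKM.

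Cdh16, the gene whose promoter drives the recombinase, had the highest level of the 10 genes in every library. Ksp-cadherin sits on the basolateral membrane of tubule cells. The gene lies on chromosome 8 from 104601915 to 104624396 (GRCm38, minus strand). Its levels were 257, 296 and 269 FPKM in wild type and 248, 214 and 247 FPKM in NICD2, where replicate 2 was the lowest. Each NICD2 library lay below each wild type library, but the gap between the nearest 2 libraries, at 257 and 248 FPKM, was smaller than the SD of either group. The mean was 274 ± 20.1 FPKM (SD, n = 3) in wild type and 236 ± 19.6 FPKM in NICD2, 13.6% lower, a log2 fold change of -0.21 ± 0.09 that did not pass the test (adjusted p = 0.164). The 95% interval of that change, not adjusted for the number of genes, ran from -0.41 to -0.02. By mean level over the 6 libraries Cdh16 ranked 231st of the 13765 genes tested. How the recombinase transgene's own Ksp-cadherin sequence would be counted in this row was not tested.

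Cdh17, the other cadherin of the same structural kind and best known from intestine and liver, was at or near 0 in every library. It was listed at 0.06, 0 and 0 FPKM in wild type and at 0.07, 0.11 and 0.05 FPKM in NICD2. For a transcript of its length, 3462 bases, 1 fragment is worth about 0.0177 to 0.0189 FPKM at the estimated depths, so these values stand for 0 to about 6.08 fragments a library. With no filter on low values Cdh17 was not called (log2 fold change 0.08 ± 0.04, adjusted p = 0.351), and no fold is given for so few fragments.

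Cdh1 was the member with the largest change. E-cadherin is the main cadherin of adherens junctions in most epithelia, and its gene lies on chromosome 8 from 106603350 to 106670247 (plus strand). The levels were 51.8, 64.8 and 61.7 FPKM in wild type and 106, 88.1 and 91.1 FPKM in NICD2. All 3 NICD2 libraries were above all 3 wild type libraries, with replicate 1 the highest of the one group and the lowest of the other. The mean rose from 59.4 ± 6.78 to 95 ± 9.45 FPKM, 59.8% higher (log2 fold change 0.67 ± 0.10, adjusted p = 0.00497). The 95% interval ran from 0.44 to 0.90. Among the 679 genes called higher, whose median log2 fold change was 0.54, Cdh1 ranked 255th by size. With 1 library left out in turn, Cdh1 was called in all 6 fits, at log2 fold changes of 0.57 to 0.73 and adjusted p of 0.0107 to 0.0199. An adrenal term, the mean log2(FPKM + 1) of the adrenal cortex genes in each library, was added to the fit after the data were seen. With it the log2 fold change of Cdh1 was 0.67 (adjusted p = 0.00449).

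Cdh3, which encodes P-cadherin, is the nearest upstream neighbour of Cdh1 among the members. It lies on the same strand of chromosome 8 from 106510852 to 106556911, with 46438 bases between the end of the one gene and the start of the other. Its levels were 16.2, 16.9 and 16.1 FPKM in wild type and 16.4, 17.6 and 15.8 FPKM in NICD2. The groups overlapped, with both the highest and the lowest library in NICD2. The log2 fold change was 0.01 ± 0.07 (adjusted p = 0.929), and its 95% interval of -0.14 to 0.16 did not reach the interval of Cdh1.

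Epcam, an epithelial surface protein that is cut by proteases and holds claudins at the membrane, lies on chromosome 17 from 87635979 to 87651127. It was at 110, 108 and 117 FPKM in wild type and at 143, 120 and 128 FPKM in NICD2. The 2 groups did not overlap, and NICD2 replicate 1 was the highest, as it was for Cdh1. The mean was 112 ± 4.8 and 131 ± 11.7 FPKM, 16.8% higher in NICD2. This difference missed the threshold (log2 fold change 0.22 ± 0.08, 95% interval 0.04 to 0.40, unadjusted p = 0.0204, adjusted p = 0.118), and Epcam was not called when any 1 of the 6 libraries was omitted. In NICD2 replicate 1 the adrenal genes were near 0. With the adrenal term the adjusted p was 0.0808.

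Cdh4, R-cadherin, a cadherin of the developing nervous system and of nephron epithelium as it forms, lies on chromosome 2 from 179442431 to 179899377. It was the member called lower, at 8.33, 7.93 and 9.49 FPKM in wild type and 6.16, 6.42 and 6.02 FPKM in NICD2. The 3 NICD2 values lay close together and all below wild type. The mean fell from 8.58 ± 0.81 to 6.2 ± 0.203 FPKM (SD, n = 3), 27.8% lower (log2 fold change -0.41 ± 0.08, adjusted p = 0.0179). The call was lost without wild type replicate 3 (adjusted p = 0.0532), without NICD2 replicate 1 (0.0576) and without NICD2 replicate 3 (0.0561), and the fold change then stayed between -0.34 and -0.41. Among the 531 genes called lower, with a median of -0.45, Cdh4 ranked 328th by size.

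The other classical cadherins of the nephron were somewhat higher in NICD2 with groups that overlapped. Cdh6, K-cadherin, which marks nephron epithelium as it forms and the proximal side later, was at 31.6, 35.1 and 39.3 FPKM in wild type and 36.8, 43.6 and 41.6 FPKM in NICD2. Its spread within wild type, 31.6 to 39.3 FPKM, was wider than the difference of the means, 35.3 ± 3.9 and 40.7 ± 3.47 FPKM (log2 fold change 0.20 ± 0.09, 95% interval -0.02 to 0.42, adjusted p = 0.233). Cdh2, N-cadherin, a cadherin of proximal tubule cells and neurons, was at 6.29, 6.92 and 7.27 FPKM in wild type and 6.99, 9.08 and 7.57 FPKM in NICD2. NICD2 replicate 2 alone was above 8 FPKM, and without it the log2 fold change went from 0.18 ± 0.10 to 0.08 (adjusted p = 0.318 and 0.655). The same library had the highest Cdh6 and the lowest Cdh16.

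The 2 remaining members are known mainly from cells other than epithelium. Cdh11, OB-cadherin of stroma and bone, was at 69, 79.4 and 79.2 FPKM in wild type and 76.8, 78.3 and 87.1 FPKM in NICD2. The ranges overlapped, and the log2 fold change was 0.09 ± 0.08 (95% interval -0.09 to 0.27, adjusted p = 0.535). Cdh13, T-cadherin of vessels and smooth muscle, was near the filter, at 2.27, 2.18 and 1.54 FPKM in wild type and 3.08, 2.38 and 2.54 FPKM in NICD2. Its groups did not overlap, but the nearest libraries were 2.27 and 2.38 FPKM, and the change was not called (log2 fold change 0.30 ± 0.13, 95% interval 0.00 to 0.59, adjusted p = 0.199). Markers of the cells known for these cadherins are given beside them. Of 7 stroma genes 1 fell and 0 rose (median log2 fold change -0.37), and of 6 endothelial genes 2 fell and 0 rose (median -0.24), beside a median of -0.01 and 3.86% called lower over all genes tested. The number of stroma genes called went to 0 when any 1 of wild type replicates 1 and 2 and NICD2 replicates 1 and 2 was left out, with no filter and with the filter at 5 FPKM, and to 3 without NICD2 replicate 3 and with the adrenal term. That of endothelial genes went to 1 when any 1 of wild type replicates 2 and 3 and NICD2 replicates 1 and 2 was left out, with no filter and with the replicate number as a block. Summed FPKM of the stroma list was 597 to 719 in wild type and 508 to 648 in NICD2, and that of the endothelial list 244 to 269 and 197 to 219. Their part in the values of Cdh11 and Cdh13 was not tested. The endothelial cadherin Cdh5 was at 47.7, 54.4 and 47.4 FPKM in wild type and 41.4, 45 and 47.3 FPKM in NICD2, and was not called (adjusted p = 0.252).

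**Figure D2:**
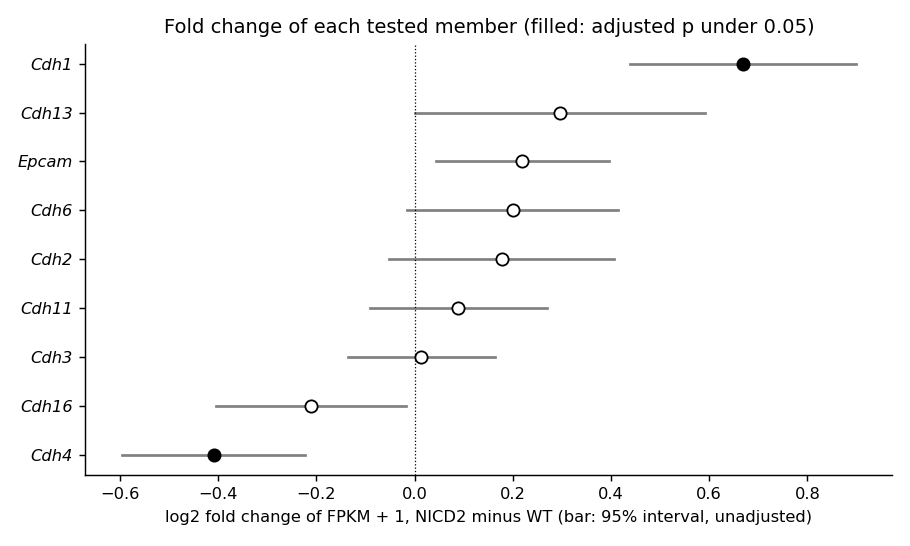
Difference of log2(FPKM + 1), NICD2 minus wild type (horizontal axis), for the 9 members tested, with 95% intervals not adjusted for the number of genes; filled points passed the adjusted threshold. Cdh1 at 0.67 and Cdh4 at -0.41 are the filled points, and the intervals of Cdh3, Cdh11, Cdh2 and Cdh6 span 0.

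FPKM are scaled to length, so the members' levels can be ordered, as far as the transcript lengths used fit the transcripts present. In wild type the order of the means was Cdh16, Epcam, Cdh11, Cdh1, Cdh6, Cdh3, Cdh4, Cdh2, Cdh13 and Cdh17, and no neighbours in it had overlapping values over the 3 libraries. In NICD2 the order differed in 2 places. Cdh1, at 88.1 to 106 FPKM, stood above Cdh11, at 76.8 to 87.1 FPKM. Cdh2, at 6.99 to 9.08 FPKM, stood above Cdh4, at 6.02 to 6.42 FPKM.

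As a share of the summed FPKM of the 10 genes, which was 552 to 617 in wild type and 580 to 643 in NICD2, Cdh16 made up 46.4% ± 1.59 (SD, n = 3) in wild type and 38.3% ± 1.29 in NICD2. The share of Cdh1 was 10.1% ± 0.586 and 15.4% ± 0.971, that of Epcam 19% ± 1.27 and 21.1% ± 0.982, and that of Cdh11 12.9% ± 0.342 and 13.1% ± 1.03. The summed level overlapped between the groups, with NICD2 replicates 1 and 3 above every wild type library. The shares of Cdh16, Cdh1, Epcam and Cdh4 (1.46% and 1.01% for Cdh4) did not overlap between the groups, and those of the other members did.

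Ratios taken within a library show the same values without any scaling between libraries. They are given as a description, with no test, because the genes were chosen with earlier results known. Cdh16 was 4.95, 4.56 and 4.36 times Cdh1 in wild type and 2.35, 2.43 and 2.72 times in NICD2. This was the ratio with the widest gap between the groups relative to its spread, with log2 means of 2.21 ± 0.09 and 1.32 ± 0.11 (SD). Cdh16 was 2.34, 2.73 and 2.29 times Epcam in wild type and 1.73, 1.78 and 1.93 times in NICD2. Cdh1 was 8.24, 9.37 and 8.48 times Cdh2 in wild type and 15.1, 9.7 and 12 times in NICD2, where replicate 2 came close to the wild type values. Cdh11 was 1.33, 1.23 and 1.28 times Cdh1 in wild type and 0.727, 0.889 and 0.956 times in NICD2. Cdh6 was 0.123, 0.119 and 0.146 times Cdh16 in wild type and 0.148, 0.204 and 0.168 times in NICD2, with the nearest libraries almost touching. The groups did not overlap in any of these 5 ratios, which share members with each other.

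**Figure D3:**
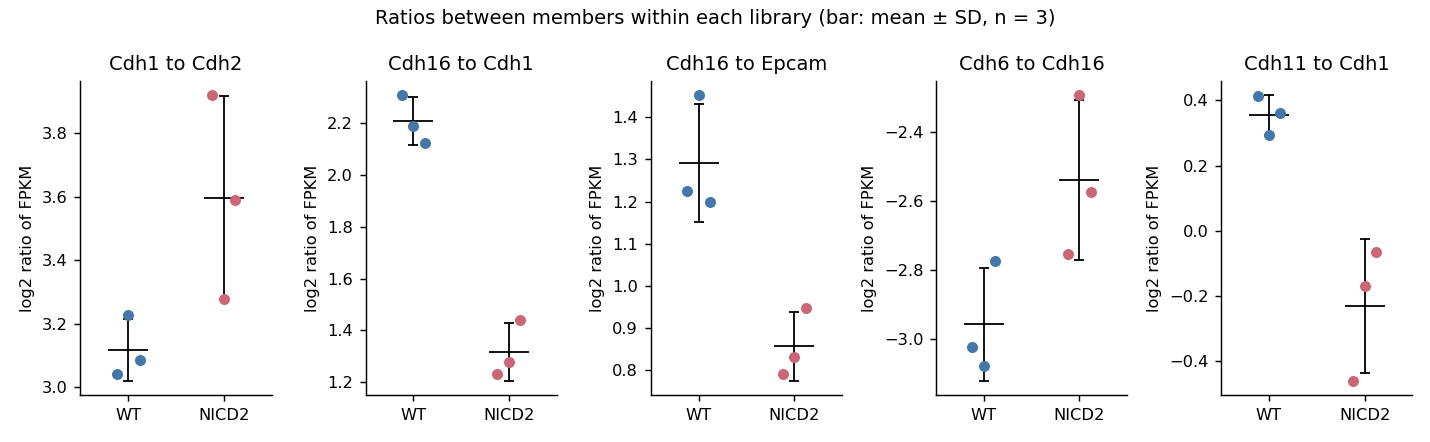
Log2 ratio of FPKM between 2 members (vertical axes, each with its own scale, not starting at 0) within each of the 3 wild type (WT) and 3 NICD2 libraries, with mean and SD. The ratio of Cdh16 to Cdh1 lies at 2.12 to 2.31 in wild type and at 1.23 to 1.44 in NICD2.

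Among the genes that act with the classical cadherins inside the cell, some rose and others were not called. Ctnnb1, beta-catenin, which binds the cadherin tail, was at 230 ± 11.9 and 236 ± 2.82 FPKM (adjusted p = 0.75), Ctnna1, alpha-catenin, which links it to actin, at 134 ± 5.29 and 133 ± 1 FPKM (adjusted p = 0.91), and Ctnnd1, p120-catenin, which keeps cadherins at the surface, at 56.8 ± 2.93 and 55.1 ± 2 FPKM (adjusted p = 0.74). These 3 were picked after their values were seen. Of the 14 tested catenins and junction partners 3 rose and 0 fell, beside 4.93% called higher and 3.86% lower over all genes tested. The median change was 0.03. Nectin4, an adhesion receptor of the immunoglobulin type at adherens junctions, rose from 2.26, 1.81 and 2.01 FPKM to 11.1, 8.7 and 8.54 FPKM (log2 fold change 1.78 ± 0.11, adjusted p = 4.69e-05). Pkp4, a relative of p120-catenin, was at 27.7 ± 0.223 and 34.8 ± 0.135 FPKM (adjusted p = 0.00847), and Ctnnd2, another catenin of that family, at 0.7 ± 0.167 and 1.68 ± 0.236 FPKM (adjusted p = 0.015). Ctnnd2 was below 1 FPKM in all 3 wild type libraries and was tested only because NICD2 passed the filter. It is counted among the 3 that rose, and with no filter on low values its adjusted p was 0.0209. Jup, plakoglobin, was at 66.3 ± 4.59 and 82 ± 6.7 FPKM and missed the threshold (adjusted p = 0.0545), while it passed with the replicate number as a block, under both other scalings and without NICD2 replicate 3.

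Around Epcam, 5 of the 7 listed partners rose and 0 fell, beside 4.93% called higher over all genes tested. The median change on the log2 scale was 0.45. The 2 not called were Cldn7, at 44 ± 5.51 and 53.6 ± 6.79 FPKM (adjusted p = 0.163), and Spint2, at 189 ± 16.2 and 205 ± 18.2 FPKM (adjusted p = 0.467). Their groups overlapped, and both were named after their values were seen. The tetraspanins Tspan8 and Cd9, membrane proteins found in complexes with Epcam, were at 36.4 ± 1.16 FPKM in wild type and 88.4 ± 17.7 FPKM in NICD2 for Tspan8 (adjusted p = 5.29e-04), and at 64.4 ± 2.95 and 104 ± 17.2 FPKM for Cd9 (adjusted p = 0.00776). Spint1, an inhibitor of the surface protease St14, was at 27.7 ± 0.666 and 38.3 ± 4.45 FPKM (adjusted p = 0.0132). Cd44, an adhesion receptor for hyaluronan, rose from 2.79 to 5.21 FPKM (adjusted p = 0.0268, and 0.073 with no filter on low values). St14 itself, named after its values were seen, rose from 28 to 34.8 FPKM (adjusted p = 0.0294). Of the 7, 2 were called without wild type replicate 2 and 3 without wild type replicate 3 or either of NICD2 replicates 1 and 2. In the first of these fits Spint1, St14 and Cd44 were not called, with Spint1 at an adjusted p of 0.0612, St14 at 0.106 and Cd44 at 0.0526. The call of St14 also needed wild type replicate 3 and NICD2 replicates 1 and 2, and that of Cd44 also needed wild type replicates 1 and 3 and NICD2 replicates 1 and 2. NICD2 replicate 1 had the highest Tspan8 and Cd9, as it had the highest Cdh1 and Epcam. Of the 11 listed proteases that cut cadherins or Epcam, 0 were called (unadjusted p under 0.05 in 2), beside 8.79% called over all genes tested. Adam15 had the smallest p of these, at 36.2 ± 1.64 and 31 ± 2.17 FPKM (adjusted p = 0.101).

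**Figure D4:**
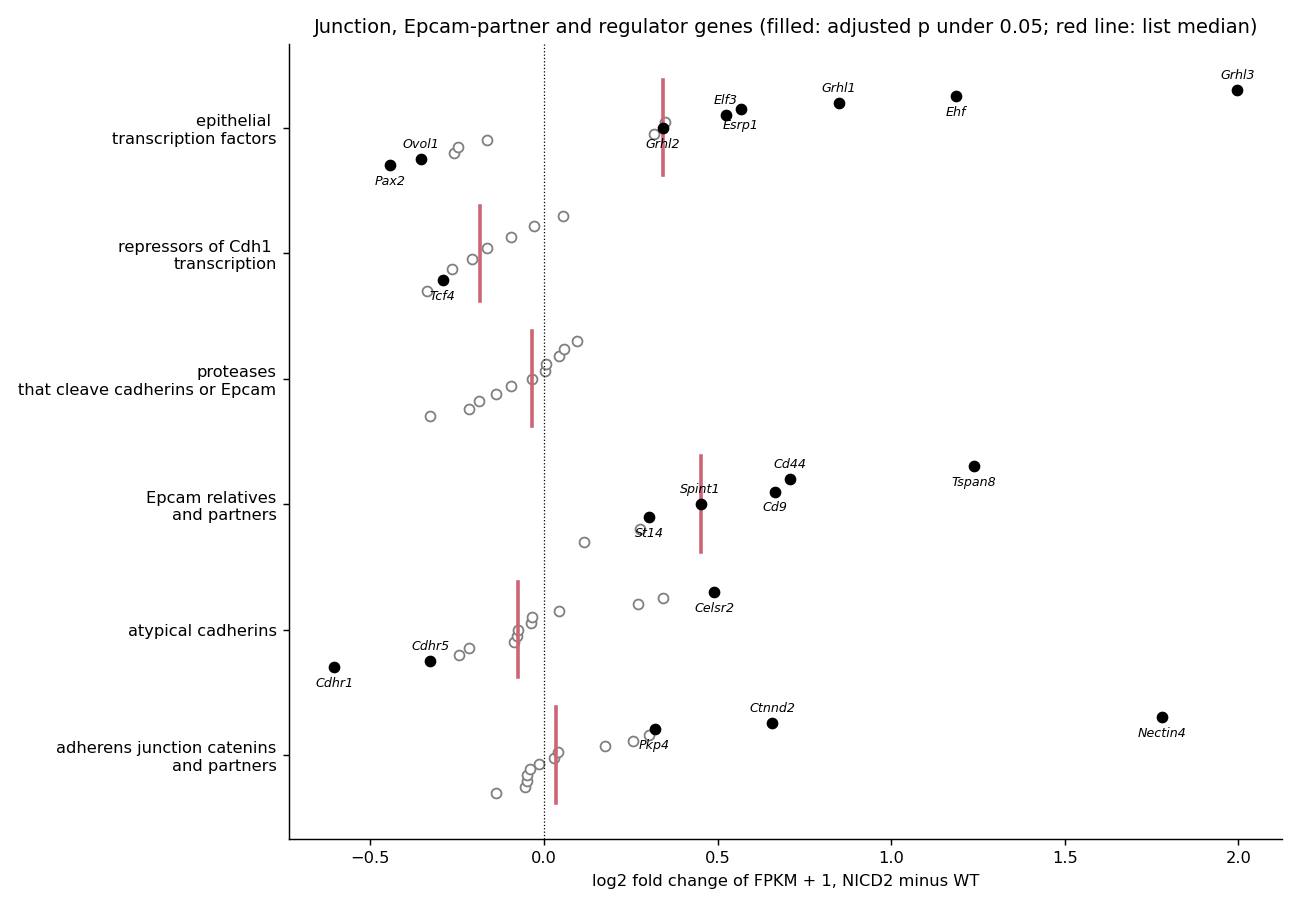
Difference of log2(FPKM + 1), NICD2 minus wild type (horizontal axis), of the tested genes of 6 lists; each point is a gene, filled and named where the adjusted p was under 0.05, and the red line is the list's median. Points of the Epcam list lie to the right of 0, with a median of 0.45, while those of the catenin list centre on 0.03 and the proteases on -0.03.

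Regulators known to act on Cdh1 were listed in 2 groups. Of 8 tested factors that repress it, 0 rose and 1 fell, beside 4.93% called higher and 3.86% lower over all genes tested. The median change was -0.18. Tcf4, an E protein, fell from 29.7 ± 1.34 to 24.1 ± 1.19 FPKM (adjusted p = 0.0293), a call for which wild type replicates 2 and 3 and NICD2 replicates 1 and 3 were each needed (adjusted p up to 0.116 without 1 of them). The zinc finger repressor Zeb1 was at 11.7, 13.3 and 13.3 FPKM in wild type and 9.94, 10.7 and 10.7 FPKM in NICD2 and was not called (adjusted p = 0.0657), except without wild type replicate 1 (0.0365). Of 13 epithelial regulators 6 rose and 2 fell, with a median of 0.34, beside the same shares and a median of -0.01 over all genes tested. These 8 calls went to 4 without NICD2 replicate 1 and to 5 without any 1 of the other 5 libraries and with no filter. Grhl3 and Grhl1, of a family that maintains epithelial junction genes, both rose, Grhl3 from 0.843 ± 0.121 to 6.46 ± 1.67 FPKM (adjusted p = 1.46e-04, tested only because NICD2 passed the filter) and Grhl1 from 1.88 ± 0.23 to 4.2 ± 0.489 FPKM (adjusted p = 0.002). Grhl3 is counted among the 6 that rose. Fits without a NICD2 library did not test it, and it was called in the 3 fits without a wild type library. Grhl2, the member of that family best known for activating Cdh1, was at 5.5, 6.2 and 5.95 FPKM in wild type and 8.37, 6.96 and 7.88 FPKM in NICD2 (adjusted p = 0.0447). The call of Grhl2 needed all 3 wild type libraries and NICD2 replicates 1 and 3 (adjusted p up to 0.148 without 1 of them), and was lost with the replicate block (0.0842), with upper-quartile scaling (0.0502) or with no filter (0.0897). Ehf, an epithelial ETS factor, was at 10.2 ± 0.543 and 24.8 ± 4.84 FPKM (adjusted p = 6.44e-04), and Esrp1, which regulates splicing in epithelia rather than transcription, at 8.94 ± 0.57 and 13.7 ± 1.35 FPKM (adjusted p = 0.00509). Elf3, another ETS factor, was at 14.9 ± 0.948 and 22.2 ± 4.8 FPKM (adjusted p = 0.0448), and only the fit without NICD2 replicate 3 among those leaving out a library still called it, and the fit with no filter did not (0.0975). The 2 that fell were Pax2 at 44.4 and 32.4 FPKM (adjusted p = 0.0124) and Ovol1 at 5.2 and 3.86 FPKM (adjusted p = 0.0473), the latter not called in any fit that left out a library (adjusted p up to 0.165). Ovol1 also lost its call with the replicate block (0.0595), no filter (0.0959), the filter at 5 FPKM (0.0635), median-ratio scaling (0.0516) and the adrenal term (0.0599). Grhl2, Elf3, Pax2 and Ovol1 were named after their values were seen.

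The cell types in which these cadherins are known moved in different directions, and their part in the members' values was not tested. Over all genes tested 4.93% were called higher and 3.86% lower, with a median of -0.01. Of 5 principal cell genes of the collecting duct, where Cdh1 is known, 3 fell and 1 rose. Aqp2, among those that fell, was at 135 ± 4.18 and 43.1 ± 7.46 FPKM. Scnn1g, the 1 that rose, was at 22.4 ± 1.6 and 39.5 ± 5.16 FPKM (adjusted p = 0.00184). Of 6 intercalated cell genes 5 fell, and the list's summed FPKM was 94.9 to 98.7 in wild type and 9.87 to 15.4 in NICD2. In the thick ascending limb, where both Cdh1 and Cdh16 are known, 2 of 4 genes rose, Umod from 114 ± 5.53 to 337 ± 33.6 FPKM and Kcnj1 from 21.9 ± 2.36 to 31.6 ± 2.98 FPKM. The other two were not called, Slc12a1 at 133 ± 12.7 and 109 ± 19.9 FPKM and Cldn16 at 8.44 ± 1.39 and 6.78 ± 0.896 FPKM, and the list's median log2 fold change was 0.12. Among 3 distal convoluted tubule genes 1 fell and 0 rose, with a median of -0.13. This was Slc12a3, at 59.1 ± 5.04 and 41.5 ± 4.97 FPKM (adjusted p = 0.0166), and the call was lost without wild type replicate 2 or 3. In the nephron progenitor list 0 of 4 tested genes were called, with a median of -0.34, and leaving out wild type replicate 3 called 1. Of 6 proximal tubule genes 1 fell, Slc34a1, at 378 ± 13.3 and 245 ± 33.7 FPKM, and 2 were called without NICD2 replicate 3 and with the adrenal term. Of 6 urothelial genes tested, 3 fell and 1 rose, 4 calls that went to 1 without wild type replicate 2 or 3 and to 2 with no filter. The 1 that rose was Upk1a, at 14.4 ± 5.03 and 37.7 ± 14.5 FPKM (adjusted p = 0.0211). Slc26a4 among the intercalated cell genes that fell, and Upk1b and Psca among the urothelial ones, were tested only because wild type passed the filter. Fits that left out a wild type library did not test them, so the fall of the urothelial calls to 1 includes Upk1b and Psca untested. Psca was called in all 3 fits that left out a library and still tested it. The summed FPKM of the 4 leukocyte genes was 25.1 to 28.9 in wild type and 25.3 to 30.2 in NICD2.

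Of 12 further classical cadherins with values, 10 did not pass the filter, and their highest value in any library was 1.21 FPKM. The 2 tested, Cdh5 and Cdh24, were not called (unadjusted p under 0.05 in 0). Among 13 tested atypical cadherins 1 rose and 2 fell, with a median of -0.07, beside 4.93% called higher and 3.86% lower over all genes tested. The planar polarity gene Celsr2 was at 21.1 ± 1.6 and 30.1 ± 1.97 FPKM (adjusted p = 0.00624). Cdhr1 was at 2.99 ± 0.355 and 1.62 ± 0.124 FPKM (adjusted p = 0.00923). Cdhr5, a cadherin of the brush border, was at 30.2 ± 0.677 and 23.9 ± 2.28 FPKM (adjusted p = 0.0329), but it was called only in the fit without NICD2 replicate 2 among the 6 that left out a library, and not with no filter (0.0559).

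The genes whose log2(FPKM + 1) followed that of Cdh16 most closely over the 6 libraries, among 7516 others with a mean of at least 10 FPKM, were Srpk2, Ednrb and Sqrdl, with Pearson correlations of 0.98, 0.97 and 0.96. Srpk2, a kinase of splicing factors, was at 19.8 and 18.4 FPKM, Ednrb, an endothelin receptor, at 32.3 and 25.5 FPKM and Sqrdl, a mitochondrial enzyme of sulfide oxidation, at 16.2 and 15 FPKM. None of these 3 was called (adjusted p = 0.365, 0.0619 and 0.442). The correlation with Cdh16 was -0.59 for Cdh6, -0.53 for Cdh1, -0.43 for Epcam, -0.36 for Cdh3 and -0.02 for Cdh11. With 6 points that include the group difference, these describe the libraries only.

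By DEGseq, as its column headers have it, the authors' deposited table calls 9 of the 10 members at a q below 0.05, all but Cdh3, and it calls 48.9% of the genes that have a q. For Cdh16 the authors' deposited table gave a log2 fold change of -0.21 with q = 1.56e-86, and for Epcam 0.23 with q = 5.59e-32. For Cdh17 the authors' deposited table gave 2.10 with q = 0.013, on the few fragments described above. The signs in the authors' deposited table matched those found here for all 9 members tested, and both rest on the same libraries.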

How the data were processed

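RNA of kidneys was extracted with Trizol and made into libraries with an Illumina TruSeq kit, per the labels' protocols. The deposited table holds FPKM for each library with 2 decimals and mean FPKM per group, computed by the authors, per the file headers. Further columns give what the authors deposited from DEGseq, namely a p-value, a q-value and a log2 ratio, and the longest transcript length of every gene, whose unit is bases in the deposited table. Bowtie 0.12.2 and the build mm8 are named in the submitters' processing notes, while the table's positions of most members match RefSeq on GRCm38. The FPKM program, the strand setting and the rule for shared reads were not given in the sources used here. The 27 columns on sample pairs were left aside.

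Rows with no value (4010) were left out. Values were transformed to log2(FPKM + 1), genes below 1 FPKM in more than 3 libraries were dropped, and all 6 libraries entered a two-sided limma 3.58.1 fit (R 4.3.3, trended variance), Benjamini-Hochberg adjusted over all genes tested. The test was tested on simulated data. Depth was estimated by taking the library size, and the number of bases taken off each length, that made most low values whole. At that setting 79.3% to 82.4% came within 0.15 fragments of a whole number. By chance 30% would at a setting fixed beforehand, and the chance share for the best of many settings was not computed. Tables and figures were made with Python 3.11.15.

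The members and the 20 gene lists were chosen with earlier results of these data known. Up to 4 members of a list with the smallest p, the 3 genes most like Cdh16 and the transgene could be named. Genes outside this rule are marked as picked afterwards. The alternatives tried were a pseudocount of 0.1, no filter, a filter at 5 FPKM, median-ratio and upper-quartile scaling, a replicate block, and each library left out. An adrenal term was added after seeing the data. Count models were not run, since the table holds FPKM. A few listed genes are not reported here and were left out of the lists' counts.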

Additional observations from a re-analysis of the deposited data

How the results depend on the processing

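Cdh1 kept its direction and its call under all 13 alternatives. Cdh4 kept its direction under all 13 and its call under 10, the exceptions being the 3 libraries named in the report. The other 7 members tested were called under no alternative in which they passed the filter. With each library left out, the log2 fold change of Cdh3 ran from -0.027 (without NICD2 replicate 2) to 0.048. Genes at 1 FPKM or more in 1 group only were not tested when a library of that group was left out. With 1 library left out in turn, 603 to 955 genes, 1 to 2 members and 30 to 45 genes of the background lists were called. The difference in log2 ratio, NICD2 minus wild type, then ranged from 0.32 to 0.64 for Cdh1 to Cdh2, from -0.95 to -0.84 for Cdh16 to Cdh1, from -0.48 to -0.35 for Cdh16 to Epcam, from 0.29 to 0.52 for Cdh6 to Cdh16 and from -0.67 to -0.47 for Cdh11 to Cdh1; scaling between libraries cannot move a ratio within one. Of other genes near 0, Cdh24 ran from -0.090 to 0.067, Ctnna1 from -0.048 to 0.0016, Ctnnb1 from -0.0031 to 0.069 and Ctnnd1 from -0.062 to 0.00092. The cause was not tested in any of these.

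The replicate numbers were not found to pair libraries: deviations from the group means of same-numbered libraries correlated at -0.03, 0.06 and -0.05. Those of differently numbered libraries correlated at -0.25 to 0.25, the highest being wild type replicate 3 with NICD2 replicate 1. With the replicate number as a block 1055 genes, 2 members and 46 list genes were called, and no member's call changed. Scaling factors lay between 0.993 and 1.01, so scaling moved the members little. Depth limits Cdh17, at 0 to about 6.08 estimated fragments a library. Cdh13 was near the filter, and its fragments were not estimated.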
